A study of Mus musculus with 8 samples.

Results

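The mouse mitochondrial genome carries 37 annotated genes, and all of them were examined here in the cochlea of wild-type (WT) and Opa1+/- mice. They were chosen as every entry of the count tables whose symbol starts with mt-, which gave 37 of 47628 entries that name a gene: 22 transfer RNAs (tRNAs), 2 ribosomal RNAs (rRNAs) and 13 messenger RNAs (mRNAs). Opa1+/- mice are heterozygous for a knock-in allele of Opa1, delTTAG, which lacks 4 bases of the coding sequence. OPA1 is a dynamin-like GTPase of the inner mitochondrial membrane. The genetic background of all mice was mixed, from C57BL/6 J and 129 Sv/Pas, none was treated, and the WT mice were control littermates with both Opa1 alleles intact. Homozygotes die before birth, so the mutation was seen with 1 WT allele left. Cochlear RNA was sequenced at 21 days of age. The WT group held 4 mice, numbered 4, 5, 6 and 8. The Opa1+/- group held 4 mice, numbers 2 and 7 and a pair with 3-digit numbers, called the third and the fourth Opa1+/- mouse here in ascending order. The study used mice of both sexes, and the sex of each of these 8 mice is not given in the sources used here. Since the samples are bulk tissue, fewer cells of a type and less RNA per cell cannot be told apart.

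In mammals each strand of the mitochondrial DNA is copied into long RNAs that carry many genes end to end. The rRNAs, nearly all mRNAs and most tRNAs are encoded in one direction, called the plus strand here, and mt-Nd6 and the remaining tRNAs in the other. The tRNAs lie between the longer genes like punctuation marks, and enzymes that cut at the 5′ and 3′ ends of each tRNA release the mRNAs and rRNAs at the same time. A tRNA therefore shares its primary transcript with its neighbours on the same strand, not with those on the other, and mature tRNAs, rRNAs and mRNAs are degraded separately. The 22 tRNAs suffice to read every codon of the 13 mRNAs, whose products are all subunits of the respiratory chain and of the ATP synthase.

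Positions and strands come from the GENCODE vM21 annotation of GRCm38. Of the tRNA genes 14 lie on the plus strand and 8 on the minus strand (those for glutamine, alanine, asparagine, cysteine, tyrosine, glutamate, proline and one of the serine tRNAs, mt-Ts1). Of the mRNA genes, 12 lie on the plus strand and mt-Nd6 on the minus strand. The genes nearly touch. The valine tRNA mt-Tv (chrM:1025-1093) fills the whole space between mt-Rnr1 (chrM:70-1024) and mt-Rnr2 (chrM:1094-2675), and mt-Tl1 (chrM:2676-2750) follows mt-Rnr2 without a gap. The isoleucine tRNA mt-Ti and the glutamine tRNA mt-Tq overlap by 3 bases on opposite strands. The sequences below are those on which the results turn. The first is the plus strand from chrM:1010-1108 with mt-Tv in capitals, and the second is the plus strand from chrM:3706-3842 with the 3 bases shared by mt-Ti and mt-Tq in capitals. The others are single tRNA genes, each on its own strand and 5′ to 3′ in DNA letters, with the anticodon in capitals: mt-Tm (methionine, chrM:3845-3913), mt-Tk (lysine, chrM:7700-7764) and mt-Th (histidine, chrM:11546-11612) rose with mt-Tv in the test below, mt-Tl1 (leucine) had the smallest fold change on the plus strand, mt-Ta (alanine, chrM:5018-5086) and mt-Ts1 (serine, chrM:6870-6938) lay at the upper and the lower end on the minus strand, mt-Ts2 (serine, chrM:11613-11671) was the only tRNA tested whose groups overlapped, and mt-Tc (cysteine, chrM:5192-5257) had too few counts for the main test.
mt-Rnr1 end, mt-Tv and mt-Rnr2 start: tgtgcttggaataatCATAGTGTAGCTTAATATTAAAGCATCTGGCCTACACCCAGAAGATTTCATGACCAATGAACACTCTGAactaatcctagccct
mt-Ti and mt-Tq: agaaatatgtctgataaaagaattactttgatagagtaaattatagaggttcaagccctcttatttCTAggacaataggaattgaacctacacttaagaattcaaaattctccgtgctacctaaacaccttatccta
mt-Tm: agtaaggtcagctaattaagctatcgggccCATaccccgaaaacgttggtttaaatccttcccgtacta
mt-Tk: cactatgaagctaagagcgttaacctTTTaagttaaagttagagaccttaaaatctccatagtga
mt-Th: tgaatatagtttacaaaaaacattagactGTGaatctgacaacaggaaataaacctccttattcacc
mt-Tl1: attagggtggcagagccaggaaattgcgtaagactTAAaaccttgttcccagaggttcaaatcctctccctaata
mt-Ta: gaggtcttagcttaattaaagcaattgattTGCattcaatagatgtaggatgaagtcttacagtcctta
mt-Ts1: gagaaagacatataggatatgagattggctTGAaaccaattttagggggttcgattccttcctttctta
mt-Ts2: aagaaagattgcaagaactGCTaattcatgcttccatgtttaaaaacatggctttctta
mt-Tc: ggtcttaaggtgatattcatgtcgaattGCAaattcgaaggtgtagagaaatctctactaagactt

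All 22 tRNA genes are 59 to 75 bases long, less than 1 read of 80 bases, so a read of full length cannot lie within a tRNA gene: it was trimmed or reached beyond the gene. Whether the counted reads came from mature tRNAs or from uncut transcripts was not tested. The use of strand in counting is not given in the sources used here, so reads of a gene and of a transcript running through it on the other strand cannot be told apart. This touches genes of both strands. Near-identical nuclear copies of some mRNAs may limit their counts too, and how shared reads were counted is not given in the sources used here. Of all windows of 80 bases, 99.5% of those in mt-Co2 and mt-Atp6 and 99.9% of those in mt-Co3 also occur in another annotated transcript. The share is 97.8% for mt-Nd3, 98.6% for mt-Nd4l, 61.4% for mt-Nd4, 37.6% for mt-Co1, 5.2% for mt-Nd2 and 1.1% for mt-Nd5. No window of an rRNA gene, of mt-Nd1, mt-Atp8, mt-Nd6 or mt-Cytb occurs in another, and no whole tRNA sequence does.

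Counts on named genes ranged from 15978051 to 20828030 per mouse, and the 37 mitochondrial genes took 11.7% to 16.1% of them in the 8 mice. Levels are given as CPM, the counts of a gene relative to the size of its library, which was scaled by the TMM factors of edgeR. These factors lay between 0.948 and 1.06. Opa1, the gene that carries the deletion, had 111.7 to 125.9 CPM in WT and 60.4 to 70.02 CPM in Opa1+/- mice, so that no library went against its label (log2 fold change -0.87, standard error 0.0677, edgeR adjusted p = 0.00515). Without Opa1+/- mouse 2 its log2 fold change was -0.85 and fell short of the threshold (edgeR adjusted p = 0.0704). It also fell short without both mice with 3-digit numbers. The tissue held its defining markers in every mouse, with the lowest hair cell marker at 1.24 CPM and the lowest spiral ganglion neuron marker at 212.5 CPM. Library numbers 1 to 4 in the labels are the WT mice and 5 to 8 the Opa1+/- mice, so the library number and the genotype cannot be told apart. For the extraction of RNA, the labels name TRI Reagent or an RNeasy microkit without saying which mouse had which, and the study's methods name TRI Reagent followed by NucleoSpin microcolumns. Such methods can differ in how well they keep short RNAs, and their part in the tRNA results was not tested.

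Of the 3 classes of mitochondrial RNA, the tRNAs gave the fewest counts. In WT mice their sum of counts was 65.5 to 89.8 CPM for 22 genes, against 3715 to 4776 CPM for both rRNAs and 106550 to 157983 CPM for the 13 mRNAs. Levels per length are counts over annotated length. Since no full read lies within a tRNA gene, they need not follow the amount of each tRNA. Per length, mt-Tl1 had the highest tRNA counts in WT mice with 185.3 ± 49.8 CPM per kb (SD, n = 4). It was followed by mt-Tm with 159.3 ± 26.6, mt-Tw (tryptophan) with 130.1 ± 16.02, mt-Tg (glycine) with 129.4 ± 26.2, mt-Tv with 97.6 ± 18.6 and mt-Tn (asparagine) with 86.7 ± 15.1 CPM per kb (SD, n = 4 each). Each of these neighbours in the order differed by less than the sum of their SDs. The next tRNA, mt-Th, lay clearly below them at 44.1 ± 2.52 CPM per kb. From there the level per length fell to 9.90 ± 4.68 CPM per kb for mt-Tf (phenylalanine) and 2.01 ± 1.45 CPM per kb for mt-Tc. The 5 tRNAs with the highest level per length held 60.0% to 64.5% of all tRNA counts in WT mice and 54.9% to 57.7% in Opa1+/- mice.

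The levels were also set against how often each amino acid is called for. The 13 mRNAs hold 3790 codons, of which the other leucine tRNA, mt-Tl2, reads 444 and mt-Tl1 144, and mt-Tl2 stood at 29.3 ± 4.84 CPM per kb in WT mice. mt-Ti reads 371 codons and had 14.1 ± 2.95 CPM per kb (SD, n = 4), whereas mt-Tw reads 103 codons. Over the 21 tRNAs tested, the Spearman correlation of codons read with the mean level per length was 0.03, and that of GC content with level was 0.53, both across genes that share the same 8 libraries and given as descriptions. The order of levels among the tRNAs in WT mice came back in Opa1+/- mice with a Spearman correlation of 0.97 over 22 genes.

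**Figure D1:**
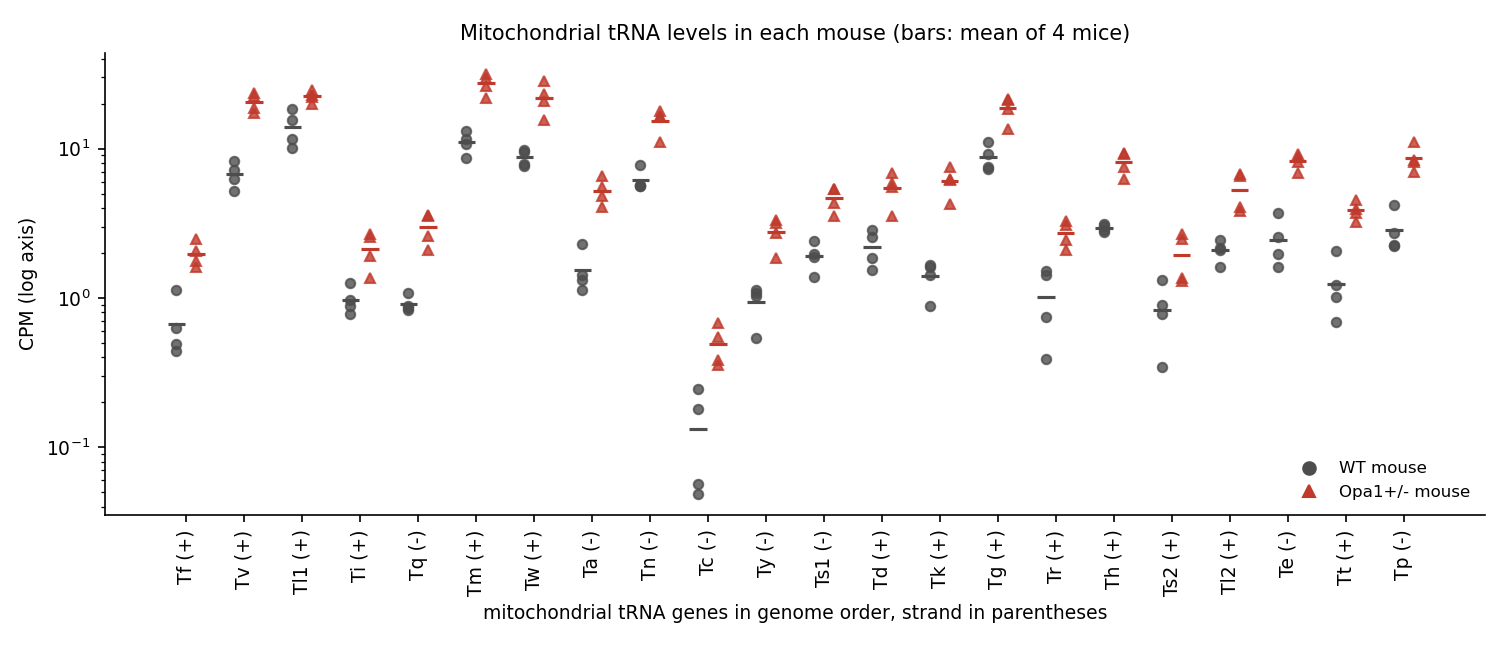
CPM of the 22 mitochondrial tRNA genes in each mouse on a log axis, in genome order with the strand in parentheses; circles are the 4 WT mice, triangles the 4 Opa1+/- mice and bars the group means. The triangles lie above the circles for every gene except mt-Ts2 (Ts2), where 1 WT mouse at 1.31 CPM stood above an Opa1+/- mouse at 1.30 CPM, and the lowest gene is mt-Tc (Tc).

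The comparison of the genotypes addressed which mitochondrial transcripts differ in Opa1+/- cochleae before the hearing loss of these mice begins. Counts of tRNAs were higher in Opa1+/- mice. Of 36 mitochondrial genes with a mean normalised count over 10, 4 rose in Opa1+/- mice at an adjusted p under 0.05 in edgeR's quasi-likelihood test, all of them plus-strand tRNAs (mt-Tv, mt-Tk, mt-Th and mt-Tm), against 0.0207% of the 19366 genes tested. Those 4 were also the only genes of the 19366 that rose. At an unadjusted p under 0.05, 23 of the 36 were higher (21 of 21 tRNAs and 2 of 2 rRNAs), against 3.51% of all genes, and 0 were lower, against 3.22% of all genes. Scaled to the 13 mitochondrial mRNAs, 1 of the 2 rRNAs remained under that threshold, and mt-Rnr2 did not (unadjusted p = 0.0785 in edgeR). Every Opa1+/- mouse stood above every WT mouse in 20 of the 21 tRNAs tested and in mt-Rnr1, against 1.98% of all genes.

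mt-Tv, the valine tRNA between the rRNA genes whose sequence heads those printed above, had 8.22, 5.23, 7.23 and 6.27 CPM in WT mice 4, 5, 6 and 8. It had 22.5, 17.3, 18.8 and 23.7 CPM in Opa1+/- mice 2 and 7, the third and the fourth. The lowest Opa1+/- mouse was far above the highest WT mouse, and the log2 fold change was 1.61 (standard error 0.156, edgeR adjusted p = 0.0173). mt-Tk, the lysine tRNA between mt-Co2 and mt-Atp8, had the largest fold change of all mitochondrial genes tested. Its level was 1.66, 0.879, 1.43 and 1.62 CPM in WT and 6.21, 4.26, 6.19 and 7.53 CPM in Opa1+/- mice. The groups stood well apart, with 18 to 33 counts for a WT mouse and 85 to 118 for an Opa1+/- mouse, and the log2 fold change was 2.11 (standard error 0.243, edgeR adjusted p = 0.0309). mt-Th, the histidine tRNA that opens a run of 3 tRNAs between mt-Nd4 and mt-Nd5, varied little among WT mice, with 3.14, 2.78, 3.05 and 2.84 CPM. In Opa1+/- mice it had 9.34, 6.22, 7.55 and 9.26 CPM. Again no values overlapped, and the log2 fold change was 1.45 (standard error 0.157, edgeR adjusted p = 0.0309). mt-Tm, which serves both to start and to extend a protein chain, had 13.1, 11.5, 10.7 and 8.67 CPM in WT and 29.5, 21.9, 26.1 and 31.7 CPM in Opa1+/- mice. The groups did not overlap, and the log2 fold change was 1.31 (standard error 0.148, edgeR adjusted p = 0.0309).

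How many mitochondrial genes passed depended on the tool and on single mice. The study used DESeq2. Its Wald test, rerun here, gave 18 mitochondrial genes higher at an adjusted p under 0.05, against 0.114% of all genes. They were 17 tRNAs and mt-Rnr1. The 4 tRNAs tested that the rerun did not call were mt-Tl1, mt-Ti, mt-Tr and mt-Ts2. The study itself reported 18 mitochondrial tRNAs and mt-Rnr1 as over-represented. Scaled to the 13 mitochondrial mRNAs in place of all genes, edgeR gave 11, all tRNAs, against 0.0568% of all genes. Leaving out 1 mouse, edgeR called 8 higher without WT mouse 4 (against 0.0413% of all genes), 1 (mt-Tv) without WT mouse 5 (0.00518%) and 7 without Opa1+/- mouse 7 (0.0362%). It called 0 without WT mouse 6, WT mouse 8 or Opa1+/- mouse 2, the third or the fourth, and 0 of all genes were then called higher. In each of these settings all tRNAs tested had a log2 fold change above 0, with extremes of 0.56 and 2.25.

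The remaining 17 tRNAs tested had log2 fold changes from 0.69 to 1.76 and edgeR adjusted p-values from 0.0701 to 0.722. On the plus strand the log2 fold changes were 1.63 for mt-Tt (threonine), 1.57 for mt-Tf, 1.41 for mt-Tr (arginine), 1.34 for mt-Tl2, 1.33 for mt-Tw, 1.30 for mt-Td (aspartate), 1.23 for mt-Ts2, 1.12 for mt-Ti and 1.08 for mt-Tg. On the minus strand they were 1.74 for mt-Te (glutamate), 1.68 for mt-Tq, 1.596 for mt-Tp (proline), 1.54 for mt-Ty (tyrosine) and 1.32 for mt-Tn. Standard errors of these 14 tRNAs were 0.174 to 0.396, and neighbours in either order differed by less than the larger of their standard errors. On the plus strand mt-Tl1, the leucine tRNA behind mt-Rnr2, had the smallest log2 fold change. Its level was 11.6, 15.5, 18.3 and 10.1 CPM in WT and 22.8, 19.9, 22.2 and 24.8 CPM in Opa1+/- mice. The groups were separated only by the gap between 18.3 and 19.9 CPM, and the log2 fold change was 0.69 (standard error 0.172, edgeR adjusted p = 0.722). On the minus strand the log2 fold change of mt-Ta, the alanine tRNA, lay at the upper end beside that of mt-Te, and the order of the highest there changed with the setting. mt-Ta had 2.28, 1.12, 1.43 and 1.32 CPM in WT and 4.79, 4.06, 5.57 and 6.51 CPM in Opa1+/- mice. No values overlapped, and the log2 fold change was 1.76 (standard error 0.245, edgeR adjusted p = 0.0748). At the lower end on that strand were mt-Tn and mt-Ts1, the serine tRNA opposite the end of mt-Co1, which differed by less than their errors and changed places without WT mouse 5, WT mouse 6 or Opa1+/- mouse 2. mt-Ts1 had 1.88, 2.39, 1.97 and 1.37 CPM in WT and 4.32, 3.56, 5.32 and 5.36 CPM in Opa1+/- mice. Here too every Opa1+/- mouse was higher, and the log2 fold change was 1.28 (standard error 0.211, edgeR adjusted p = 0.232).

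mt-Tc, the cysteine tRNA, reads 28 of the 3790 codons, fewer than any other tRNA, and fell under the count minimum. It had 1, 1, 3 and 5 counts in WT and 6, 11, 11 and 6 counts in Opa1+/- mice. Counts of all Opa1+/- mice were higher, and the level differed in an exact two-sided permutation test over the 8 mice (p = 0.0286, the smallest that 70 arrangements allow, unadjusted). Fitted in edgeR with no count minimum, it stood 1.84 higher in Opa1+/- mice on the log2 scale, with a standard error of 0.519, and did not pass over all genes (adjusted p = 0.753). Summed, 10 counts stood against 34, a ratio of 3.72 after scaling with an exact 95% interval from 1.80 to 8.44 that covers counting error only. mt-Tc is set off from mt-Tn by 32 bases, the stretch known as the origin of light-strand replication, and is one of 5 tRNAs in the cluster of tryptophan, alanine, asparagine, cysteine and tyrosine.

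**Figure D2:**
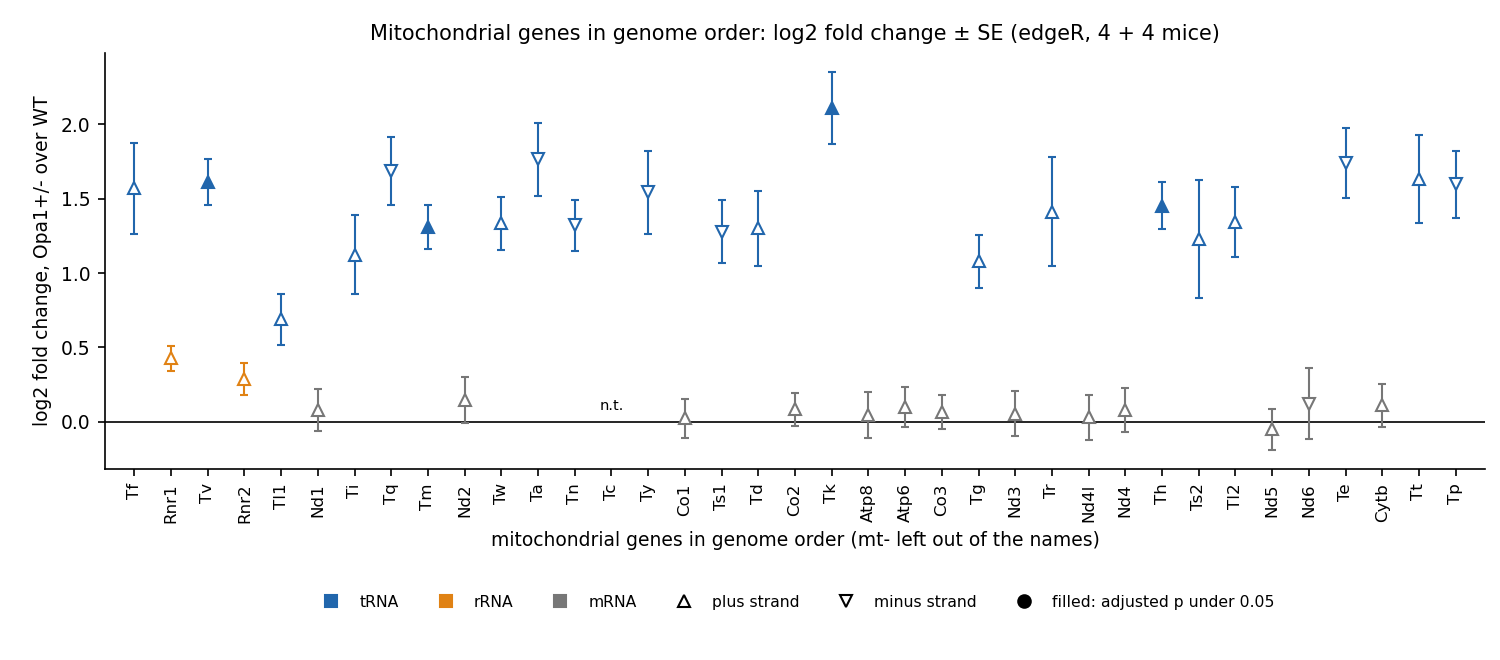
log2 fold change of Opa1+/- over WT with its standard error for each mitochondrial gene in genome order (edgeR, 4 mice each); colours mark tRNA, rRNA and mRNA genes, upward triangles the plus strand, downward triangles the minus strand, and filled symbols an adjusted p under 0.05. The tRNAs lie between 0.69 and 2.11 at all positions and on both strands, the mRNAs between -0.05 and 0.15 directly beside them, and mt-Tc (n.t.) was not tested.

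The higher tRNA counts were found on both strands and all around the genome. The 14 plus-strand tRNAs summed to 68.0, 61.0, 69.8 and 51.1 CPM in WT mice 4, 5, 6 and 8 and to 161.1, 116.0, 142.8 and 173.3 CPM in the Opa1+/- mice in the same order as before, 2.37 times as much on average. The 8 minus-strand tRNAs summed to 21.8, 16.1, 15.3 and 14.3 CPM in WT and to 49.4, 36.9, 50.7 and 56.1 CPM in Opa1+/- mice, 2.86 times as much. On neither strand did the groups overlap. The median log2 fold change was 1.34 over the 14 plus-strand and 1.596 over the 7 minus-strand tRNAs tested, against 0.000395 over all genes tested. Within a mouse, minus-strand counts were 0.2198 to 0.320 of plus-strand counts in WT and 0.307 to 0.355 in Opa1+/- mice, so that this ratio overlapped between the genotypes. The overlap came from WT mouse 4 alone, at 0.320. WT mice 5, 6 and 8 lay below every Opa1+/- mouse.

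Grouped by place, every cluster of tRNA genes was higher in each Opa1+/- mouse than in each WT mouse. The 3 tRNAs that flank the rRNA genes (mt-Tf, mt-Tv and mt-Tl1) had a sum of 21.3 ± 4.08 CPM in the WT group, against 44.97 ± 5.23 CPM for Opa1+/- (SD, n = 4 each), a ratio of 2.11. The cluster of mt-Ti, mt-Tq and mt-Tm had a ratio of 2.51, the cluster of mt-Tw, mt-Ta, mt-Tn, mt-Tc and mt-Ty of 2.62, the pair of mt-Ts1 and mt-Td of 2.46, and the run of mt-Th, mt-Ts2 and mt-Tl2 of 2.62. The ratio for mt-Tk, alone between mt-Co2 and mt-Atp8, was 4.33. The ratio for mt-Tg, which stands alone between mt-Co3 and mt-Nd3, was 2.11, and that for mt-Tr, alone between mt-Nd3 and mt-Nd4l, was 2.67. At the far end, mt-Te, alone between mt-Nd6 and mt-Cytb, had a ratio of 3.34, and the pair of mt-Tt and mt-Tp of 3.05. Over the 21 tRNAs tested, the Spearman correlation of the log2 fold change with the start position was 0.16, with length -0.23, with GC content 0.16, with codons read -0.10 and with the mean level per length -0.17. These are descriptions across genes measured in the same 8 libraries.

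Ratios within a mouse were formed for tRNAs that lie next to each other or serve the same amino acid. mt-Tt and mt-Tp, which abut on opposite strands, had a count ratio of 0.304 to 0.493 in WT and 0.413 to 0.489 in Opa1+/- mice. mt-Tw and mt-Tn, from the same cluster and opposite strands, had a ratio of 1.27 to 1.68 in WT and 1.29 to 1.595 in Opa1+/- mice. Both ratios overlapped between the genotypes. The ratio of mt-Ti to mt-Tq, the pair with shared bases printed above, was 0.818 to 1.5 in WT and 0.544 to 0.976 in Opa1+/- mice, again with overlap. Of the serine tRNAs, mt-Ts2 had 0.250 to 0.697 of the counts of mt-Ts1 in WT and 0.301 to 0.5 in Opa1+/- mice. mt-Ts2, which lacks 1 arm of the usual cloverleaf, was measured with little precision, with 7 to 23 counts in WT and 22 to 42 in Opa1+/- mice. The leucine tRNAs together had 15.98 ± 3.94 CPM in the WT group, against 27.7 ± 3.36 CPM for Opa1+/- (SD, n = 4 each), and mt-Tl2 had 0.114 to 0.187 of the counts of mt-Tl1 in WT and 0.173 to 0.286 in Opa1+/- mice. That range overlapped too. Between the extremes of fold change, mt-Tk had 14.3, 5.66, 7.82 and 15.9 counts per 100 of mt-Tl1 in WT and 27.3, 21.4, 27.9 and 30.4 in Opa1+/- mice. These tRNAs were chosen for their fold changes, so the separation of their ratio is a description.

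Some mice stood high or low for many tRNAs. Opa1+/- mouse 7 was the lowest of its group in 18 of 22 tRNAs and the fourth Opa1+/- mouse the highest in 15 of 22. In WT, mouse 8 was the lowest in 11, mouse 5 the lowest in 8 and mouse 4 the highest in 12 of 22. For the 13 mRNAs, WT mouse 8 was again the lowest in 12 and the fourth Opa1+/- mouse again the highest in 10. The other extremes fell to other mice, with WT mouse 5 the highest in 11 of 13, and the third Opa1+/- mouse the lowest in 8 and mouse 2 in 5.

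**Figure D3:**
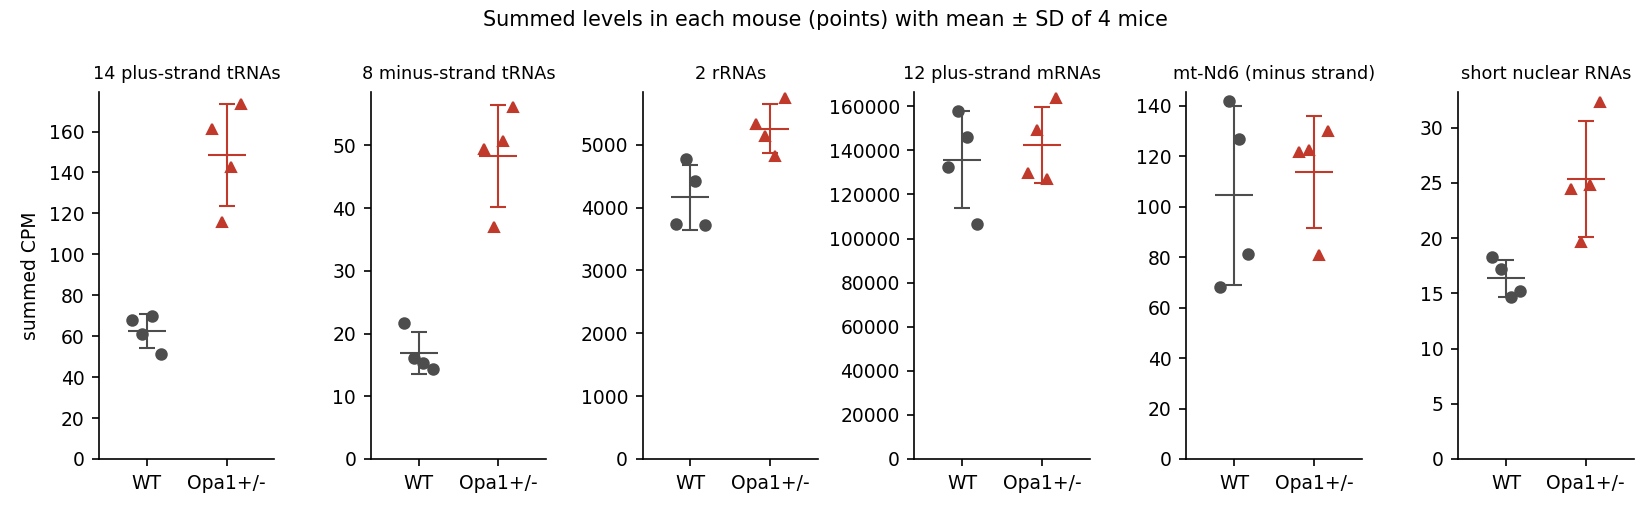
Summed CPM of 4 groups of mitochondrial genes, CPM of mt-Nd6 and summed CPM of short nuclear RNA genes in each mouse, each panel on its own axis from 0; circles are WT and triangles Opa1+/- mice, and lines give the mean ± SD of 4 mice. The groups do not overlap for tRNAs of either strand (51.1 to 69.8 against 116.0 to 173.3 CPM on the plus strand) and short nuclear RNAs. For rRNAs they stand apart only narrowly (3715 to 4776 against 4815.5 to 5737 CPM). They overlap for plus-strand mRNAs and mt-Nd6.

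The rRNAs had smaller fold changes than the tRNAs next to them, a difference that was not tested. mt-Rnr1, the RNA of the small mitochondrial ribosomal subunit, had 1352, 1493, 1479 and 1239 CPM in WT and 1899, 1738, 1769 and 2075 CPM in Opa1+/- mice. All Opa1+/- mice were higher than all WT mice, and the log2 fold change was 0.43 (standard error 0.0853). It did not pass in edgeR (adjusted p = 0.571) and passed in DESeq2 (adjusted p = 0.000937). mt-Rnr2, the RNA of the large subunit, had 2384, 3283, 2939 and 2476 CPM in WT and 3434, 3396, 3046 and 3662 CPM in Opa1+/- mice. WT mouse 5 stood above the third Opa1+/- mouse, so the groups overlapped, and the log2 fold change was 0.29 (standard error 0.110, edgeR adjusted p = 0.722). The ratio of mt-Rnr2 to mt-Rnr1 was 1.76 to 2.20 in WT and 1.72 to 1.95 in Opa1+/- mice, with overlap. The level of mt-Tv, cut from between them, was also higher relative to mt-Rnr1. It had 0.608, 0.350, 0.489 and 0.506 counts per 100 counts of mt-Rnr1 in WT and 1.18, 0.998, 1.06 and 1.14 in Opa1+/- mice, and these groups did not overlap.

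None of the 13 mRNAs passed after adjustment in edgeR, DESeq2 or limma voom. At an unadjusted p under 0.05 in edgeR, 0 were higher and 0 lower, against 3.51% and 3.22% of all genes tested. No mRNA separated the groups. Every Opa1+/- mouse stood above every WT mouse for 1.98% of all genes tested, and below for 452 of 19366. With only 13 mRNAs, counts of 0 lie near these shares. Their log2 fold changes lay between -0.05 and 0.15 with a median of 0.08, standard errors of 0.112 to 0.238 and edgeR adjusted p-values of 0.878 or more. Values were above 0 for 12 of 13, a count that depends on the scale of the libraries, and scaling to the mRNAs themselves centres it by construction. By the complex they serve, log2 fold changes were -0.05 to 0.15 for the 7 mRNAs of complex I (mt-Nd1, mt-Nd2, mt-Nd3, mt-Nd4, mt-Nd4l, mt-Nd5 and mt-Nd6), 0.11 for mt-Cytb of complex III, 0.02 to 0.08 for the 3 of complex IV (mt-Co1, mt-Co2 and mt-Co3), and 0.05 and 0.10 for mt-Atp8 and mt-Atp6 of the ATP synthase. At the upper end were mt-Nd2, a subunit of complex I, and mt-Nd6, which differed by less than their errors and whose order turned when some mice were left out. mt-Nd2 had 7426, 9059, 8465 and 5652 CPM in WT and 7421, 8664, 7502 and 10293 CPM in Opa1+/- mice. The range of the WT mice covered 3 of the 4 Opa1+/- mice, and its log2 fold change was 0.15 (standard error 0.157, edgeR adjusted p = 0.878). The lowest log2 fold change of the main fit was that of mt-Nd5, also of complex I, which differed from that of mt-Co1 by less than either standard error. mt-Nd5 had 7890, 9038, 8450 and 6211 CPM in WT and 6438, 8999, 7010 and 8059 CPM in Opa1+/- mice. All Opa1+/- mice lay within the WT range, and the log2 fold change was -0.05 (standard error 0.137, edgeR adjusted p = 0.956). mt-Co1, the catalytic subunit of complex IV and the mRNA with the most counts, had 25581, 33619, 28580 and 22097 CPM in WT and 26316, 30563, 24463 and 30337 CPM in Opa1+/- mice. All Opa1+/- mice lay within the WT range here as well, and the log2 fold change was 0.02 (standard error 0.133, edgeR adjusted p = 0.978), which was -0.0010 with total counts as the scale.

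mt-Nd6, the only mRNA of the minus strand and again a subunit of complex I, was the rarest mRNA, at 201.4 ± 68.3 CPM per kb (SD, n = 4) in WT mice against 3542 ± 578 CPM per kb (SD, n = 4) for the next, mt-Nd3. Its level was 68.0, 141.9, 126.9 and 81.3 CPM in WT and 121.6, 122.4, 80.8 and 130.1 CPM in Opa1+/- mice. The groups overlapped widely, and the log2 fold change was 0.12 (standard error 0.238, edgeR adjusted p = 0.939). Relative to it, the tRNA beside it on the same strand, mt-Te, was higher in Opa1+/- mice: mt-Te had 5.45, 1.79, 1.55 and 1.99 counts per 100 counts of mt-Nd6 in WT and 7.20, 5.61, 10.04 and 7.02 in Opa1+/- mice, without overlap, although WT mouse 4 came close to Opa1+/- mouse 7. Against its partner on the other strand, mt-Nd6 had 0.862 to 1.57 counts per 100 of mt-Nd5 in WT and 1.15 to 1.89 in Opa1+/- mice. The mRNA with the highest level per length was mt-Atp6, a subunit of the ATP synthase, at 25393 ± 4186 CPM per kb (SD, n = 4) in WT mice, followed by mt-Co2 at 20189 ± 2457, mt-Atp8 at 19499 ± 3530 and mt-Co1 at 17779 ± 3159 CPM per kb (SD, n = 4 each), neighbours that differed by less than the sum of their SDs.

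Ratios were also formed for genes that share an mRNA. mt-Atp8 and mt-Atp6 overlap by 43 bases and are carried by 1 mRNA, and mt-Atp8 had 0.214 to 0.241 of the counts of mt-Atp6 in WT and 0.208 to 0.248 in Opa1+/- mice. mt-Nd4l and mt-Nd4 overlap by 7 bases, and their ratio was 0.149 to 0.165 in WT and 0.137 to 0.168 in Opa1+/- mice. These ranges lay on top of each other. For mt-Nd5 and mt-Cytb, which are not carried by 1 mRNA, the ratio was 0.485, 0.470, 0.476 and 0.502 in WT and 0.410, 0.482, 0.444 and 0.390 in Opa1+/- mice, so that Opa1+/- mouse 7 alone fell within the WT range.

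**Figure D4:**
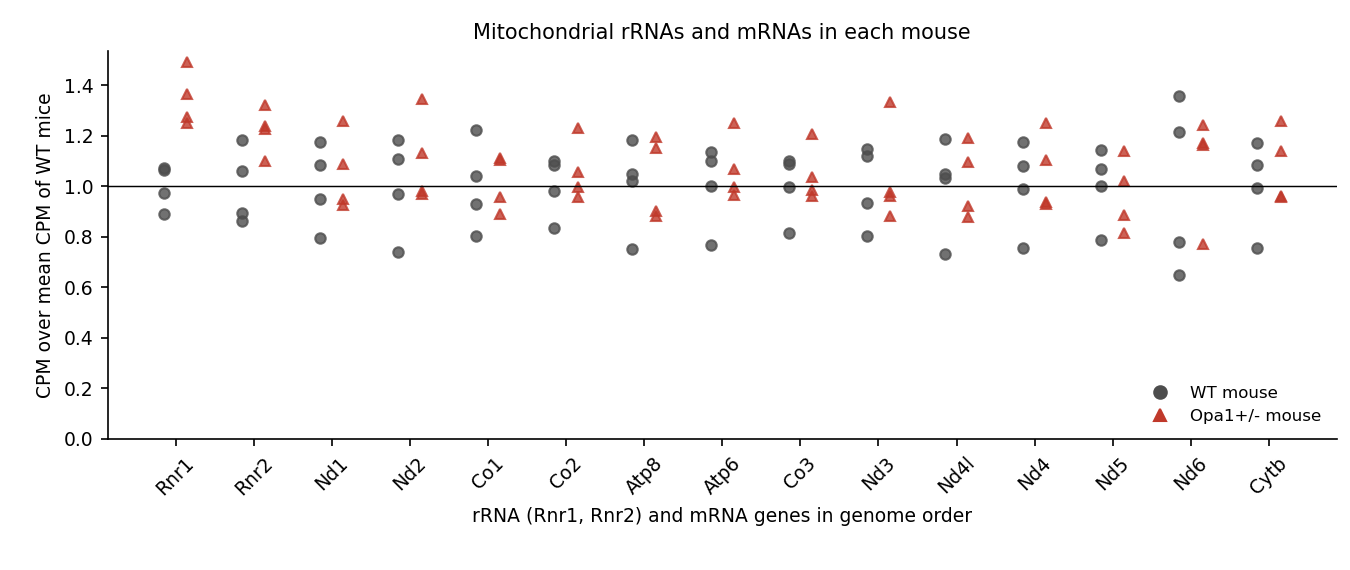
CPM of the rRNA and mRNA genes in each mouse, divided by the mean CPM of the 4 WT mice, in genome order; circles are WT and triangles Opa1+/- mice, and the line marks the WT mean. For mt-Rnr1 all triangles lie above all circles (1738 to 2075 against 1239 to 1493 CPM), and for each of the other genes they mix.

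The tRNAs can also be set against the other mitochondrial RNAs within each mouse, where the scaling of the libraries drops out. There were 0.676, 0.488, 0.583 and 0.614 tRNA counts per 1000 mRNA counts in WT mice and 1.62, 1.03, 1.52 and 1.40 in Opa1+/- mice. The groups did not overlap. For rRNAs, 28.1 to 34.9 counts per 1000 mRNA counts were found in WT and 34.4 to 41.1 in Opa1+/- mice, with WT mouse 8 above Opa1+/- mouse 7. Per length, mt-Tv reached 6.20 ± 1.63% of the mean level of its flanking rRNAs in WT and 14.5 ± 1.33% in Opa1+/- mice (SD, n = 4 each). mt-Tl1, between mt-Rnr2 and mt-Nd1, reached 2.64 ± 0.412% of its neighbours in WT and 4.03 ± 0.512% in Opa1+/- mice. Every other tRNA had a mean below 4% of its nearest genes that are not tRNAs in both genotypes, down to 0.0175 ± 0.0150% for mt-Tc in WT mice. For the minus-strand tRNAs, mt-Tc included, these nearest genes lie on the plus strand, except that mt-Te also has mt-Nd6 beside it. Since no full read lies within a tRNA gene, these percentages compare counts per length and not amounts of RNA.

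Short RNAs encoded in the nucleus had a higher sum in Opa1+/- mice too, by a smaller ratio. The 699 entries of small nucleolar and other small nuclear genes annotated under 100 bases summed to 18.3, 17.2, 14.7 and 15.2 CPM in WT and 24.5, 19.7, 24.8 and 32.4 CPM in Opa1+/- mice, a ratio of 1.55 without overlap. Only 5 of them had enough counts to be tested, of which 3 were higher at an unadjusted p under 0.05, against 3.51% of all genes, and 0 passed after adjustment in edgeR. DESeq2 gave 2, against 2.88% of all genes, and 0. In edgeR all 5 had a log2 fold change above 0, from 0.303 to 1.103 with a median of 0.8076. The 21 tRNAs tested had 0.69 to 2.11 with a median of 1.41, so these ranges overlapped. In 2 of the 5, every Opa1+/- mouse stood above every WT mouse, against 1.98% of all genes. As sums, the tRNAs still exceeded the short nuclear RNAs by more in Opa1+/- mice. Within a mouse, summed tRNA counts were 4.31 to 5.80 times those of the short nuclear RNAs in WT. They were 7.09 to 8.60 times in Opa1+/- mice, without overlap. The length or the yield of the RNA fragments in each library is not given in the sources used here, and its part in the tRNA result was not tested.

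Among markers of other cells, the sums of erythroid genes overlapped between the genotypes. The 5 markers (Hba-a1, Hba-a2, Hbb-bs, Hbb-bt and Alas2) were all above 0 in log2 fold change with 0 of 5 at an unadjusted p under 0.05, and none was at 0 in any mouse. They summed to 21265, 12196, 8689 and 7709 CPM in WT and 15298, 14918, 18306 and 24916 CPM in Opa1+/- mice. WT mouse 4 stood above 3 of the 4 Opa1+/- mice, and the other 3 WT mice stood below all 4. The 3 Schwann cell markers summed to 1596 to 2233 CPM in WT and 1968 to 2532 CPM in Opa1+/- mice, and the 5 hair cell, 5 spiral ganglion neuron, 3 stria vascularis, 5 neutrophil and 3 skeletal muscle markers overlapped between the genotypes as well. The part of these cells in the tRNA result was not tested.

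Nuclear genes for the making and decay of mitochondrial RNA were compared as the machinery around these transcripts. The list held 30 entries, all tested and covering the mitochondrial RNA polymerase and its cofactors, the enzymes that cut both ends of a tRNA, the one that adds CCA to its end, the poly(A) polymerase and the RNA-degrading complex. None passed after adjustment in edgeR, 9 of 30 had a log2 fold change above 0 against 9709 of 19366 over all genes tested, and the median was -0.05 against 0.000395 over all genes tested. At an unadjusted p under 0.05, 0 were higher and 1 was lower, where 3.51% of all genes tested were higher and 3.22% lower. The 1 gene was Grsf1, which encodes an RNA-binding protein of mitochondrial RNA granules, at -0.15 on the log2 scale (standard error 0.0567, edgeR adjusted p = 0.722). DESeq2 also called 0 of the 30 after adjustment, with 0 higher and 1 lower at an unadjusted p under 0.05, against 2.88% of all genes in each direction.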

How the data were processed

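For each mouse the authors deposited raw counts per gene symbol. They had prepared CORALL libraries from cochlear RNA, sequenced them as paired reads of 80 nucleotides, used molecular identifiers against amplification bias and mapped to GRCm38 (mm10) with STAR. The counting program is not given in the sources used here. Entries with a number as symbol (15, at most 0.124% of counts) were left out. Counts per mouse, 15978051 to 20828030 on named genes, set the precision, and tRNA counts are low. Genotypes were taken from the labels. Genes with a mean count over 10 after DESeq2 size factors (19366) were tested with the quasi-likelihood test of edgeR 4.0.16 (TMM scaling, Benjamini-Hochberg adjustment, adjusted p under 0.05), which was tested on simulated data before use. CPM are counts over TMM-scaled library sizes, and SD and n refer to mice. Standard errors are the log2 fold change over the root of the F statistic. Nothing says whether the samples of a group were prepared independently beyond coming from separate animals. The same counts were tested with DESeq2 1.42.0 and limma 3.58.1 voom, other scalings and filters, and with each mouse left out. Positions and sequences are from GENCODE vM21, and windows were searched among its transcripts only.

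All 37 mitochondrial genes were named. Values per mouse were given for those past the adjusted threshold, both rRNAs, mt-Nd6, mt-Tc, the tRNAs with the extreme fold changes on each strand and the extreme mRNAs, with single ratios and mt-Ts2 added after their values were seen. Members, lists and ratios were chosen with earlier results of these data known. Fits were run in R 4.3.3 and plots drawn with matplotlib 3.10.9 under Python 3.11.15.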

Additional observations from a re-analysis of the deposited data

Results flagged for a closer look

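The level of mt-Tn, the asparagine tRNA, in WT mouse 4 stood apart from the other WT mice, at 7.76 CPM against 5.58 to 5.66 CPM, by Dixon's test of the gap over the range. It lay below every Opa1+/- mouse (10.98 to 17.8 CPM). This was 1 of 84 groups of 4 mice examined, and chance alone passes this test's critical value in about 1 of 20 groups.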

How the results depend on the processing

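No paired analysis was possible because no animal number occurs in both genotypes. The 4 mitochondrial genes called by edgeR became 11 when scaled to the 13 mitochondrial mRNAs, 18 with DESeq2's Wald test, 9 with limma voom and sample quality weights, 9 with robust estimation and 11 with no filter on low counts, and 4 genes were called with DESeq2 size factors, total counts, library sizes without mitochondrial genes, bias-adjusted deviances and edgeR's own filter. Leaving out 1 mouse gave 0 to 8 calls, and leaving out both Opa1+/- mice with 3-digit numbers gave 0. Calls over all genes tested, in either direction, were 5 of 19366 in the main fit and 12 when scaled to the mitochondrial mRNAs. They were 25 with DESeq2, 10 with limma voom, 10 with robust estimation and 12 of 34939 with no filter. Without 1 mouse they were 0 to 9, and without both 3-digit mice 0 of 19454. The cause of these differences was not tested. At an unadjusted p under 0.05 there were 21 to 24 mitochondrial genes in all settings. In the main fit 3.51% of all genes tested were higher at that threshold and 3.22% lower. Opa1 had log2 fold changes of -0.90 to -0.83 with 1 mouse left out and fell short of the adjusted threshold in edgeR without Opa1+/- mouse 2 (-0.85, adjusted p = 0.0704) and without both 3-digit mice (-0.86, adjusted p = 0.26). Over all settings, log2 fold changes of the tRNAs tested stayed above 0, and their median stayed between 1.29 and 1.52.

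Signs turned for mRNAs, whose log2 fold changes lie near 0. With total counts mt-Co1 was at -0.0010. Scaling to the mitochondrial mRNAs centres these genes on 0 by construction, so a turned sign there says nothing about stability: mt-Co1 was then at -0.042, mt-Atp8 at -0.025, mt-Co3 at -0.0049, mt-Nd3 at -0.021 and mt-Nd4l at -0.033. Without both 3-digit mice mt-Nd3 was at -0.044. With 1 mouse left out, the log2 fold change ranged from -0.021 to 0.165 for mt-Nd1, -0.071 to 0.136 for mt-Co1, -0.073 to 0.137 for mt-Atp8, -0.013 to 0.165 for mt-Atp6, -0.024 to 0.117 for mt-Co3, -0.092 to 0.13 for mt-Nd3, -0.096 to 0.125 for mt-Nd4l, -0.038 to 0.166 for mt-Nd4, -0.153 to 0.027 for mt-Nd5, -0.035 to 0.305 for mt-Nd6 and -0.0064 to 0.196 for mt-Cytb. Low counts per mouse limit the precision of single tRNAs.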
